A study of Mus musculus and Bos taurus with 2 samples.

Results

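The transcript models described here are those of late 2-cell mouse embryos whose first exon is exactly 115 bp long. They numbered 584 of the 82847 models deposited for the 2 libraries of the series, and of the 18757 mouse models that could be chosen. A model could be chosen when it had at least 2 exons, a known strand and a structure that was neither an exact nor a contained match of a reference transcript. The 584 models began at 301 distinct first exons on 20 chromosomes. They were chosen because this length stood out in the library, so the length itself is described without a test.

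The mouse library was made from about 200 pooled embryos that were produced by in vitro fertilization of superovulated Slc:ICR oocytes, cultured in KSOM medium and collected at the late 2-cell stage, 36 h after insemination. The bovine library was made from about 200 pooled 8-cell to 16-cell embryos, collected 72 h after in vitro insemination of oocytes from Japanese Black or Japanese Black × Holstein F1 cattle with Japanese Black sperm. Polyadenylated RNA was copied to cDNA, amplified with 14 PCR cycles and read by nanopore on 1 flow cell per library. The labels name no treatment beyond in vitro production, and pooling hides differences between embryos. Both libraries carry batch 1, and species, stage and library cannot be told apart. With 1 library per species there was no replicate, so each share is given with a 95% Clopper-Pearson interval (exact), which covers only counting error and treats models as independent draws. The deposited models hold no read counts, so neither depth nor transcript abundance is known, and each count below is a count of assembled structures.

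The first large wave of transcription from the embryo's own genome takes place in mouse at the 2-cell stage, a step called zygotic genome activation. Long terminal repeats of endogenous retroviruses are known to act as promoters at this stage, and a transcript that starts in such a repeat and splices into other exons is called a chimeric transcript. A repeat family holds many near-identical copies, so copies that use the same start and the same splice donor give first exons of one length. No repeat annotation was used here, so no first exon below is assigned to a repeat family.

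The letters of a first exon could be read only where an annotated transcript or a RefSeq promoter window of the same genome build covers it. All letters could be read for 31 of the 301 first exons (10.3%, 7.11% to 14.3%). Of these 31, 13 carried one sequence, on 9 chromosomes, and the other 18 carried other sequences. The sequences below are shown because they carry the common start and end of the group and the part where the length varies. They are read 5′ to 3′ on the strand of the model, in mm10 coordinates, from GENCODE M21 transcripts and RefSeq promoter windows. Capitals mark the bases before a stretch that is common to the matching first exons, and that stretch runs to the splice donor in the ones shown.
The 115-bp first exon at chrX:15939135-15939249, minus strand, in the lincRNA gene Drr1: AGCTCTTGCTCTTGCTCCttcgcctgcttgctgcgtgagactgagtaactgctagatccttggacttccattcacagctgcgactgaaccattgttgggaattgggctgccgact
The 115-bp first exon at chr10:66809840-66809954, plus strand, in the lincRNA gene Gm47896: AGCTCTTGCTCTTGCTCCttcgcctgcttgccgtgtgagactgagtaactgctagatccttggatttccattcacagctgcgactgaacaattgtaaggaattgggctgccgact
The 115-bp first exon at chr15:79010927-79011041, minus strand, in the antisense gene Gm10865: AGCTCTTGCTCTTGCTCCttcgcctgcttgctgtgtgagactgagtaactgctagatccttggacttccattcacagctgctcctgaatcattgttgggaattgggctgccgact
A first exon 6 bp shorter, at chr1:150625669-150625777, plus strand, in the antisense gene Gm20631: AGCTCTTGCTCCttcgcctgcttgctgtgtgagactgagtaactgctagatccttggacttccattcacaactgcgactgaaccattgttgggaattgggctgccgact
A first exon 6 bp longer, at chr7:129667412-129667532, plus strand, in the sense intronic gene Gm33248: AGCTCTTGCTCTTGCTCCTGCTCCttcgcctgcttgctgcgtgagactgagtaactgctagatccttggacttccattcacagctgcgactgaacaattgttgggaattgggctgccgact

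The 13 first exons were near-identical. The one on chromosome X had the fewest mismatches to the others in total and served as the reference. Any 2 of the 13 differed at 0 to 10 positions, with a median of 5.5 over 78 pairs, and none differed from the reference at more than 6 positions. All 13 held the same base at 94 of the 115 positions. Another 6 first exons could be read over at least 60 bases, and 3 of these matched the reference at 94.2%, 96.7% and 100% of the bases read, while 3 did not match it. The 18 with other sequences all overlapped exons of protein-coding genes on the same strand, among them Pcnp, Notch1, Rad18, Klhl24, Eml5, Esrp2 and Tsr2, which were chosen for mention after their sequences were seen, apart from Pcnp. The readable first exons are those inside annotation, so the share of 13 in 31 (41.9%, 24.5% to 60.9%) does not estimate the share among those that could not be read.

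Among readable first exons, the share with a common sequence was lower in the pool of the other lengths of 100 to 130 bp. Among distinct first exons of 100 to 130 bp with another length and all letters read, 65 of 614 matched another one of them (10.6%, 8.27% to 13.3%), at no less than 80% identity over 60% of the shorter exon. The reference sequence itself was matched by 25 of the 614 (4.07%, 2.65% to 5.95%). At 90% identity over 80% of the exon the members kept 13 of 31, and the other lengths fell to 43 of 614 (7.0%, 5.11% to 9.32%). The intervals of the members and of the pool did not overlap in either setting. Single lengths were counted only over all spliced models, whatever their class code, and without an interval. There the reference was matched by 13 of 80 readable first exons at 115 bp, 7 of 57 at 108 bp and 5 of 65 at 109 bp. Every other length of the pool had fewer matches. Whether the share at 115 bp differs from those at 108 and 109 bp was not tested.

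The letters around the exon were alike where they could be read. The stretch at chr14:55532667-55532861, plus strand, mm10, holds 70 bases before and 10 bases after the first exon of a model that joins Pck2, the gene of the mitochondrial phosphoenolpyruvate carboxykinase. It is shown because it is a member with both flanks, and capitals mark a TATAAGG stretch, the bases before the common stretch and the first bases of the intron.
Member with flanks: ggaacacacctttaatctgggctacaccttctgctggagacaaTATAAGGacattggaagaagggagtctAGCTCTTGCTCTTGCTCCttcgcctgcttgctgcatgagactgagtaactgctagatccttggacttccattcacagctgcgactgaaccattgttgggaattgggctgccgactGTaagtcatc
The 70 bases upstream could be read for 5 of the 13, and all 5 had TATAAGG with its first base 27 bases before the start. The bases after the exon could be read for 3, and all 3 read GTAAGTCATC. The motif TATAAGG was chosen after these letters were seen. Among 32851 RefSeq promoter windows of 300 bases, 97 (0.295%) held it on the gene's strand within 5 bases of the same distance from the annotated start, 1.32% held it anywhere on that strand and 2.17% on either strand. None of the 14 readable members outside the group had it in the 70 bases upstream, which allows a share of up to 21.4%. A match of letters is a description and does not show that a factor binds there.

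The length of matching first exons varied mostly at the 5′ end. Across all spliced models of the library, whatever their class code, 69 distinct readable first exons matched the reference sequence. The common stretch ran to the donor in 61 of them, and 8 went on for 233 to 2216 bases after it. At 115 bp, 13 of 80 readable first exons matched, and all 13 had 18 bases before the common stretch. At 109 bp 5 of 65 matched, of which 4 had 12 bases there, and at 121 bp both matches among 69 had 24. These 3 lengths were chosen for their spacing of 6 bp. The common stretch was set as the reference without its first 18 bases, which leaves 97. Where it ran to the donor, the number of bases before it therefore followed from the length. Lengths off this spacing also matched. At 108 bp 7 of 57 matched, 6 of them with 11 bases before the stretch, and at 116 bp 3 of 70, all 3 with 19. Most lengths in the window had no match or 1.

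**Figure D1:**
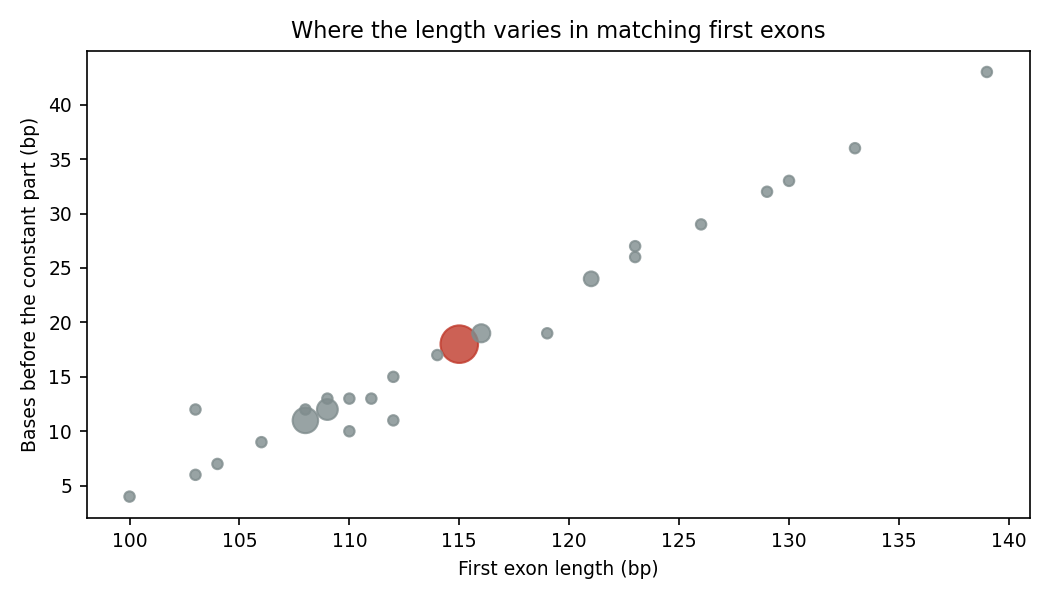
Each circle is a first exon length (x axis, bp) and a number of bases before the common stretch (y axis, bp) among the 49 of 69 matching mouse first exons of 90 to 140 bp, with an area that grows with their number, while 20 are not shown, among them the 8 that go on past the common stretch. The 13 of 115 bp share 1 point at 18 bases. The points lie near a line because the common stretch, of nearly fixed length, ends at the donor in these 49, so their length differences sit mostly at the 5′ end.

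In the library as a whole, 115 bp was the most frequent first exon length of 1578 lengths, which is what the members were chosen by. The other lengths between 100 and 130 bp had a median of 99.5 models each, from 53 to 245, so 115 bp held 5.87 times the median. The next most frequent lengths were 121 bp with 245 models, 109 bp with 241, 108 bp with 232 and 123 bp with 165. Counted by distinct first exons, 115 bp held 301 and the other lengths a median of 69.5. In the bovine library the same length held 57 models, below the median of 78 at its neighbours, and ranked 127. Among 115054 spliced GENCODE M21 transcripts of mouse, 507 had a first exon of 115 bp against a median of 441 for the neighbours, which ran from 383 to 556.

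**Figure D2:**
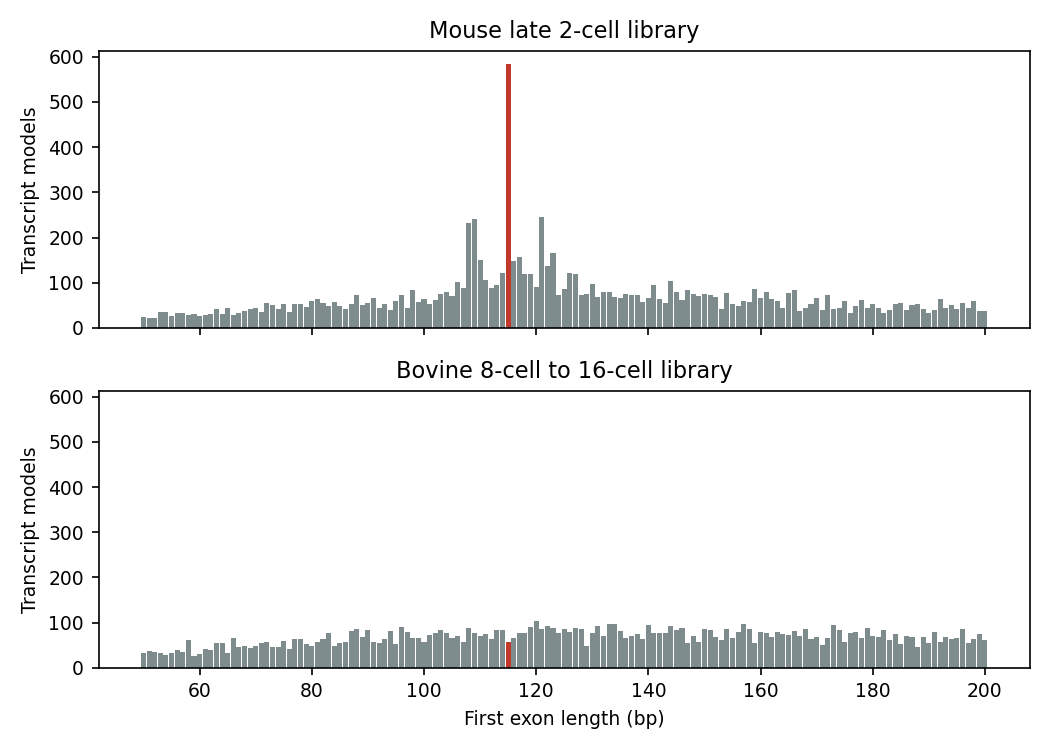
Number of transcript models (y axis) by first exon length in bp (x axis) in the mouse library (top) and the bovine library (bottom), over spliced models that are neither exact nor contained matches, with 115 bp in red. The mouse bar at 115 bp reaches 584 and the bovine bar 57.

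Because copies of the sequence could be found by letters alone, the library's starts were also looked up from the sequence side. The reference first exon matched 265 separate places in annotated transcripts and promoter windows. Of these, 95 lay in protein-coding genes, 65 in lincRNA genes, 47 in annotated miRNA genes and 28 in antisense genes. A spliced model of the library had its first exon on the same strand over 162 of the 265 (61.1%, 55.0% to 67.0%), and 94 (35.5%, 29.7% to 41.6%) had no model on that strand. None had a first exon on the opposite strand, which allows a share of up to 1.13%. The reference's own place and the other readable members are among the 265, and places outside annotation are not counted. The same shares were not computed for other annotated stretches, so the shares at copies, here and in what follows, have no background.

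Most first exons at these copies ended at one donor, while their starts spread. At 151 of the 162 copies with a first exon (93.2%, 88.2% to 96.6%), at least 1 first exon ended at the base that aligns with the last base of the members. Of 186 distinct first exons at copies, 158 ended there (84.9%, 79.0% to 89.8%). Of those 158, 16 were 115 bp long, 18 were 109 bp, 11 were 108 bp and 4 were 121 bp. In all, 92 (58.2%, 50.1% to 66.0%) were between 80 and 140 bp, and 32 (20.3%, 14.3% to 27.4%) were over 1000 bp, with a start far upstream of the copy.

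**Figure D3:**
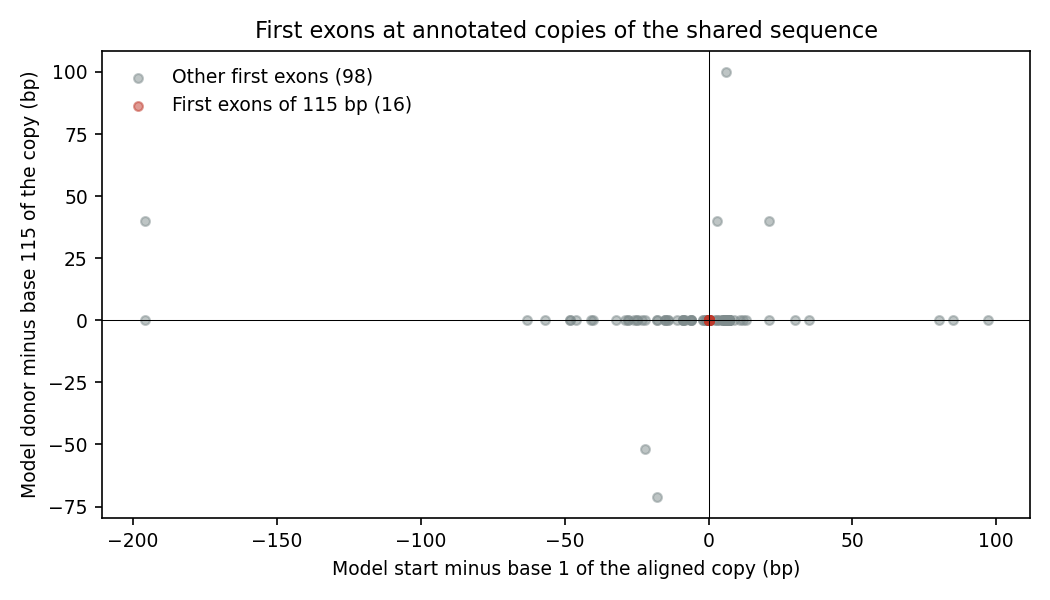
Each point is a distinct library first exon at an annotated copy of the sequence, with its start (x axis) and donor (y axis) in bp relative to the aligned first and last base of the reference, for the 114 of 186 within 200 bp on both axes. The 16 first exons of 115 bp lie at the origin, and 108 of the 114 points lie on the line of donor offset 0 while starts spread to both sides.

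Across the 584 models, most first exons lay outside annotated exons. Annotated exons, splice sites and gene places here are those of GENCODE M21, while class codes and deposited names refer to the authors' reference. The 2 differ, since 68.4% of the exact spliced matches had an intron chain of GENCODE M21. Some members counted as between genes or in introns, such as those named Gm39683 and Gm32432, therefore share exons with a gene of the authors' reference. No base overlapped an annotated exon on the same strand in 524 models (89.7%, 87.0% to 92.1%), where the background over all eligible mouse models was 55.5%. The share at other lengths of 100 to 130 bp was 69.4% (67.8% to 70.9%), so the intervals did not overlap. By place, 319 models (54.6%, 50.5% to 58.7%; background 30%) began between genes and 124 (21.2%, 18% to 24.8%; background 8.44%) in an intron of a gene on the opposite strand. A further 80 (13.7%; background 14.8%) began in an intron of a gene on the same strand, 60 (10.3%; background 44.5%) in an annotated exon and 1 in an exon of the opposite strand (0.171%; background 2.19%). Counted by distinct first exons, the share in an opposite-strand intron was lower, at 48 of 301 (15.9%). At the other lengths of 100 to 130 bp it was 12.2% of models and 10.5% of distinct first exons. The plus strand held 323 models (55.3%, 51.2% to 59.4%; background 49.5%), but 154 of the 301 distinct first exons (51.2%, 45.4% to 56.9%), an interval that includes the background. The most frequent class code, which gives the relation to the reference, was the one for models between genes, with 225 members (38.5%; background 18%). The code for a shared junction with a different structure followed with 144 (24.7%; background 56%), that for an exon overlapped on the other strand with 94 (16.1%; background 9.04%) and that for a place inside an intron with 64 (11.0%; background 5.35%).

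Models of the other frequent lengths also began mostly outside annotated exons. Without an annotated exon began 81.2% of the 245 models at 121 bp (75.8% to 85.9%), 72.6% of the 241 at 109 bp (66.5% to 78.1%), 86.6% of the 232 at 108 bp (81.6% to 90.7%) and 84.8% of the 165 at 123 bp (78.5% to 89.9%). The interval at 115 bp overlapped those at 108 and 123 bp and lay above those at 121 and 109 bp. The share that used an annotated splice site was 32.7% at 121 bp, 33.6% at 109 bp, 32.8% at 108 bp and 40.6% at 123 bp (33.0% to 48.5%), with intervals that overlap the one at 115 bp (26.9% to 34.6%).

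**Figure D4:**
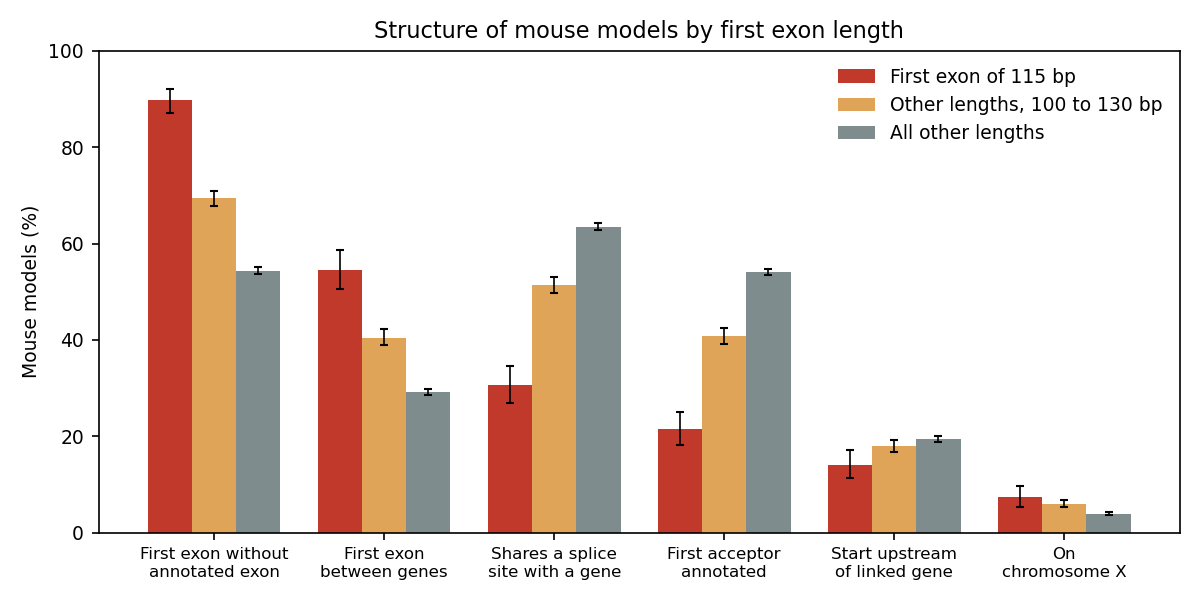
Percent of mouse models (y axis) with each property, for first exons of 115 bp (red, 584 models), other lengths of 100 to 130 bp (orange, 3456) and all other lengths (grey, 18173), with exact 95% intervals as bars. The members are highest for first exons without annotated exon (89.7%) and between genes (54.6%), and lowest for shared splice sites (30.7%) and annotated first acceptors (21.6%).

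With the first exon included, the models were in median shorter than those of the other lengths. They had a median of 3 exons, against 4 at the other lengths in the window, and 187 (32.0%, 28.3% to 36.0%; background 25.7%) had 2 exons only. The median spliced length was 881.5 bp against 1098 bp, and the median first intron was 7041 bp against 4089.5 bp and 2543 bp over all other lengths. A first exon had 1.94 models on average, against 1.55 in the window. Of the 301 first exons, 157 had 1 model, 74 had 2 and 70 had 3 or more.

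Chromosomes X and 16 held larger shares of the member models than of the models of all other lengths, with limits in both cases. Chromosome X held 43 models (7.36%, 5.38% to 9.79%; background 4.03%), and the other lengths of the window also had 6.02% there (5.25% to 6.86%), which overlaps. By distinct first exons the share was 19 of 301 (6.31%, 3.84% to 9.68%). Chromosome 16 held 42 models (7.19% of the members against 3.46% of all other lengths) but only 12 of the 301 distinct first exons. Its share of models thus rests on first exons with several models, and the first exon with most models lay there. It stood at chr16:20884580-20884694, plus strand, in an intron of a gene on the other strand, and 11 unnamed models of 3 to 6 exons began at it with 3 different first acceptors. The next were 8 models of Gm32432 at chr16:96933502-96933616 and 8 unnamed models between genes at chr4:16885020-16885134, both on the plus strand.

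Some other models used the start or donor of a member's first exon, which was not counted for other lengths. There were 9 spliced models of another first exon length, of 87 to 228 bp, that used one of the 301 donors. Another 4 models used one in an internal exon. Of the models that began at one of the 301 starts, 17 spliced ones used another donor and 19 had no intron. A further 13 models with the same first exons were exact or contained matches, which the rule leaves out. The spacing of starts was not compared with other lengths either. On one strand, the 261 gaps between neighbouring starts had a median of 9880.6 kb, and 1 was under 100 kb. That pair lay 5904 bp apart on chromosome 6, minus strand, and began the 4 models named Gm5306.

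The share that spliced into genes of GENCODE M21 was lower than over the whole window, and close to that of the other frequent lengths given above. A splice site of an annotated gene was used by 179 of the 584 models (30.7%, 26.9% to 34.6%), against a background of 62.5% and 51.4% in the window (49.8% to 53.1%). The first acceptor was annotated in 126 (21.6%, 18.3% to 25.1%; background 53.1%). The 179 models were linked to 105 genes, of which 76 were protein-coding, with 117 models (20%, 16.9% to 23.5%; background 54.7%), and 18 were lincRNA genes, with 34 models. Exon numbers, here and below, are the lowest that the joined exon has in any annotated transcript of the gene. An exon counted as second can therefore be joined from far inside a gene, as at Nr6a1, from 176.2 kb inside. Where the acceptor belonged to the linked gene, 89 of 125 models joined an exon counted as second (71.2%, 62.4% to 78.9%). Exon 4 or a later one was joined by 27 (21.6%, 14.7% to 29.8%). In the window these shares were 76.4% (74.0% to 78.6%) and 14.4% (12.6% to 16.3%), and both pairs of intervals overlapped.

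The start lay before the outermost annotated start of the linked gene in 82 models (14.0%, 11.3% to 17.1%; background 19.3%), and at least 1 kb upstream in 67 (11.5%, 9.0% to 14.3%; background 7.36%). The direction against the other lengths of the window thus depended on the distance asked for, since these had 18% (16.7% to 19.3%) at any distance and 9.43% (8.48% to 10.5%) at 1 kb or more, and the intervals overlapped in both. Among models linked to a gene, 82 of 179 (45.8%, 38.4% to 53.4%) began upstream, against 621 of 1778 (34.9%, 32.7% to 37.2%). This comparison was chosen after seeing the data, and it counts several models of one first exon as separate draws. By distinct first exons the counts were 43 of 104 against 395 of 1260, for which no interval was computed. The upstream starts of the members lay a median of 4659 bp away, against 1505 bp in the window and 201 bp at all other lengths. For protein-coding genes the medians were 7701 bp, 630 bp and 126 bp.

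**Figure D5:**
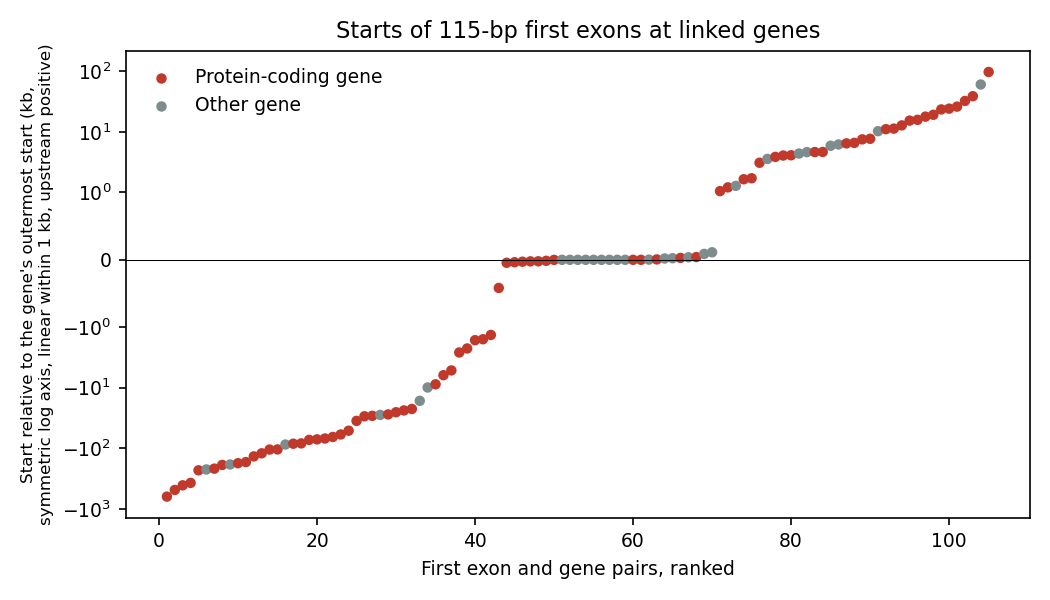
Each point is a pair of a 115-bp first exon and its linked gene, ranked (x axis) by the position of the start relative to the gene's outermost annotated start (y axis, kb, upstream positive, symmetric log scale that is linear within 1 kb). Of 105 pairs, 44 are upstream, 35 of them by 1 kb or more and 15 by 10 kb or more, and 33 lie at least 10 kb inside the gene.

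Among protein-coding genes, several were reached from upstream by models with the coding start downstream of the joined exon. Gprc5c, which encodes an orphan G protein-coupled receptor, had 5 of its 6 sense models from one first exon at chr11:114825003-114825117, plus strand, 26.1 kb upstream. Of these, 2 joined its second exon and kept the coding start, and the first acceptor of the other 3 was not annotated. Olfr881, an olfactory receptor gene, had 4 models from chr9:37979011-37979125, plus strand, 12.8 kb upstream, of which the linked ones kept the coding start. Zfp51, a zinc finger gene, had 4 of its 6 sense models from chr17:21442673-21442787, plus strand, 7.7 kb upstream, of which 3 joined its second exon and kept the coding start. Csnk2a1, the gene of a catalytic subunit of casein kinase 2, had 2 of its 11 sense models, of 13 and 14 exons, from 1.65 kb upstream. Rgn, the regucalcin gene, had 1 of its 3 sense models, of 7 exons, from 4.67 kb upstream.

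At other genes the annotated coding start lay before the joined exon. Pole2, which encodes a subunit of DNA polymerase epsilon, had 2 models of 6 and 19 exons from chr12:69266933-69267047, minus strand, 38.9 kb upstream. Ceacam1, a cell adhesion gene, had 2 models from chr7:25501729-25501843, minus strand, 24.2 kb upstream, and 4933428M09Rik had 2 from chrX:139146792-139146906, plus strand, 32.4 kb upstream, of which 1 joined an annotated exon. Rac1, the gene of a small GTPase of the cytoskeleton, had 1 of its 6 sense models from 17.9 kb upstream. Fabp4, the gene of a fatty acid-binding protein, had 1 of its 2 sense models from 11.3 kb upstream. The furthest upstream start was that of 1 model linked to Vmn1r85, a vomeronasal receptor gene, at 97.5 kb, whose first acceptor belonged to no exon of that gene, so its coding start was not judged. This is the minus-strand first exon at chr7:13192573-13192687, one of the 13 with the shared sequence, and the deposited name of the model is Gm38947.

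Other first exons lay deep inside genes, in introns on the gene's own strand. Farp1, which encodes a guanine nucleotide exchange factor, had 3 of its 4 sense models from chr14:121223277-121223391, plus strand, 188.1 kb inside the gene, joined to its exon 4. All 4 sense models of Ccdc60 began 135.8 kb inside the gene, at chr5:116153071-116153185, minus strand. Msh3, a DNA mismatch repair gene, had 2 of its 4 sense models from 72.6 kb inside, which joined exon 14. Atg5, an autophagy gene, had 1 of its 4 sense models from 68.9 kb inside, which joined exon 7. Mbd5, a gene of a methyl-CpG-binding domain protein, had 3 models from 230.7 kb inside that joined exon 7 and kept the coding start. Csnk2a1, Rgn, Rac1, Fabp4, Msh3, Atg5, Mbd5 and Pck2 were chosen for mention after their values were seen.

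Over all members whose first exon overlapped no annotated exon and which joined a coding transcript, the annotated coding start was kept in 21 of 63 models, of 13 genes (33.3%, 22.0% to 46.3%). It was lost in 38 models of 28 genes (60.3%, 47.2% to 72.4%) and differed by isoform in 4. In the window 104 of 468 kept it (22.2%, 18.5% to 26.3%), and the intervals overlapped. The protein that a model would give was not derived here.

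Pcnp, a gene of a nuclear protein rich in PEST sequences, began its members at its own annotated start. Its 6 models began at chr16:56029603-56029717, minus strand, within its annotated first exon and 0.022 kb inside its outermost start, with a sequence outside the shared group. The first exon of the 5 models named Gm31596, at chr3:151887215-151887329, plus strand, overlapped an annotated exon only in part. It started 0.088 kb upstream of the lincRNA gene Gm43617 that they are linked to. First exons at known gene starts are part of the members by the rule.

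Many members lay across genes on the other strand. Cadps, a gene of vesicle release, gave its name to 7 models at chr14:12634080-12634194, plus strand, in its intron on the opposite strand, and had no sense model in the library. Sgcd and Sec22c gave theirs to 5 models each in the same way. Tmem183a and Nsf each named 4 such models beside 3 sense models of their own, Ryr3 named 4 beside 2, Abcc5 named 3 beside 2 and Fbxl17 named 3 beside 5. In these cases a name therefore marks the reference gene that the model lies across, and not a transcript of that gene.

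Noncoding genes with many members beside Gm43617 were 0610005C13Rik, with all 7 of its sense models from one first exon 4.4 kb upstream of it at chr7:45579611-45579725, minus strand, and Hnf4aos, with all 4 from 16.5 kb inside it. Gm28905 had its 3 sense models from 184.8 kb inside it. In all, 201 gene names stood in the deposited models of the members, 81 of them on 2 or more, and 7 further genes were named from the annotation only.

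None of 6 lists of genes of early development and basic cell function held a gene named by a member. Of 35 modelled genes of the 2-cell burst, 0 had one, which allows a share of up to 8.57%, and of 46 modelled maternal oocyte genes 0, up to 6.52%. The lists for the silencing of repeats and methylation of DNA (45 genes), pluripotency and lineage (26), splicing (52) and the cell cycle (39) also had 0, which allows up to 6.67%, 11.5%, 5.77% and 7.69%. Over all 15507 genes that named a mouse model, 201 named a member (1.3%), so counts of 0 lie near that background at these sizes. Only genes with an eligible model could name a member, and these were 8279 of the 15507. In the lists they were 26 (2-cell burst), 29 (maternal), 35 (silencing), 15 (pluripotency), 30 (splicing) and 17 (cell cycle). Over these smaller numbers each limit would be wider and the background higher.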

How the data were processed

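Per the labels' protocols, each library was polyadenylated RNA turned into cDNA with a PCR kit and read on its own MinION flow cell. The authors deposited 1 set of transcript models per library, which per the file attributes hold exon positions, gene names and class codes for the relation to a reference, and no counts or abundance. Builds were mm10 and bosTau9 per the submitters' processing notes. Which aligner and filters were used is not given in the sources used here.

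First exons were taken in the direction of transcription. Mouse models were compared by strand with GENCODE M21 on the same build. Of the exact spliced matches, 68.4% (67.7% to 69.1%) had an intron chain of that annotation. A model was linked to the gene with which it shared most splice sites. Letters came from GENCODE M21 transcripts and RefSeq GRCm38 promoter windows, which gave no conflicting base (0) where they overlapped. Sequences were matched with blastn 2.17.0 (e-value 1e-05), and the common stretch was placed with edlib 1.3.9.post1. Intervals came from scipy 1.17.1. The scripts were tested on simulated data. The members and gene lists were chosen with earlier results of these data known. Named genes were those with 2 or more members, up to 30, list members, and the 5 protein-coding genes with the furthest upstream starts. Alternatives were a looser or stricter definition of each measure and counting by distinct first exon. Bovine sequences and the other mouse first exons' letters were not analysed here.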

Additional observations from a re-analysis of the deposited data

How the results depend on the processing

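Across 6 results, 15 alternatives were computed. Counted by distinct first exons, the members numbered 301 in place of 584, still 4.33 times the median of the other lengths, and with all class codes 3.61 times. Within 1 bp the ratio was 2.68. With all class codes the bovine library held 129 models at 115 bp in place of 57, below the median of 146.5. The share of members linked to a gene was 21.6% where the first acceptor had to be annotated, in place of 30.7%. The share of upstream starts was 45.8% among linked models only, an alternative chosen after seeing the data, in place of 14.0%. At 1 kb or more it was 11.5%, above the 9.43% of the window, where at any distance it lay below the window's 18%. With partly read first exons, also chosen after seeing the data, 43.2% shared the sequence. The other alternatives stayed within 1.5 times the count or within the interval of the share. Read depth is unknown, and a rare start may not have been assembled. No paired analysis was possible because each species had 1 library and no test was run.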
